A study of Mus musculus with 12 samples.

Results

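Mice that lack either IL-2 or IL-15 were taken as 1 group of 8 mutant libraries, 4 Il2° and 4 Il15°, and compared with 4 wt libraries, which together are all 12 libraries of the series. The question was which parts of the TCRα repertoire of developing regulatory T lymphocytes (Treg) differed from wt in the same direction whichever cytokine was lost. The mutants were chosen by their genotype labels alone (Il2null and Il15null in the labels, Il2° and Il15° here); the question itself was posed with earlier results of these data known. Each library came from newly developed Treg of the thymus of 1 mouse aged 3 weeks, sorted as CD4+CD8-Thy1.1+GFP+ cells. In all 3 genotypes Thy1.1 was a reporter of Foxp3 (Foxp3-Thy1a), GFP was driven by the Rag2 promoter (Rag2-Gfp) and thus marked cells that had recently rearranged their receptor, a transgene (Kaa) gave every T cell the same TCRβ chain, and 1 Tcra allele was inactivated (Tcra+/null). The repertoire therefore varied in the α chain only, and it is that of mice with a fixed β chain rather than of a normal thymus. The study describes the wt mice as littermates, and its labels give no sorting or sequencing batch.

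A TCRα chain is encoded by a TRAV segment joined to a TRAJ segment, and the junction, with the bases lost or added there, forms the third complementarity-determining region (CDR3), the loop that mostly contacts the presented peptide. The TRAJ segments lie in a row downstream of the TRAV segments, and in a thymocyte the 5′ TRAJ segments are used first, with later rearrangements reaching towards the 3′ end. IL-2 and IL-15 both signal through receptors that share the β chain of the IL-2 receptor (Il2rb) and the common γ chain (Il2rg), and both are known to sustain Foxp3+ precursors in the thymus. A clonotype is here 1 combination of TRAV segment, CDR3 amino acid sequence and TRAJ segment, the definition used in the study. Its share is the percentage of the in-frame unique molecular identifiers (UMIs) of a library, and a UMI marks 1 captured Tcra mRNA molecule, not 1 cell.

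The 2 segments whose share passed the test in the pooled comparison, both lower in mutants, were TRAJ32 and TRAJ37. They are functional J segments on the plus strand of chromosome 14, at chr14:54186101-54186166 for TRAJ32 and chr14:54181518-54181577 for TRAJ37 (mm10, GENCODE M21). Their germline sequences are given because they set the carboxy-terminal part of every CDR3 in the main result, and capitals mark the bases up to the end of the CDR3.
TRAJ32: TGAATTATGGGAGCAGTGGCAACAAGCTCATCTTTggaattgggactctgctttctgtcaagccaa
TRAJ37: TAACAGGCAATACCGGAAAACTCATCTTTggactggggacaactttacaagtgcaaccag

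The most abundant CDR3 nucleotide sequence is shown for the clonotypes that carry the comparisons of single clonotypes, with capitals for bases that belong neither to the V nor to the J segment. The TRAV4D-3 TRAJ37 and TRAV6D-7 TRAJ37 clonotypes are shown together because they share the J-encoded end and their mean shares in both mutants lay on opposite sides of the wt mean, without passing a test. Neither of these held a base between V and J in its leading sequence.
TRAV4D-3 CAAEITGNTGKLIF TRAJ37: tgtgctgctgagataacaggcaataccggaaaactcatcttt
TRAV6D-7 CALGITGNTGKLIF TRAJ37: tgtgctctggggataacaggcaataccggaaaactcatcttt
TRAV6D-7 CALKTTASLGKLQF TRAJ24: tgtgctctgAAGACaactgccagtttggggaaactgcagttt
TRAV14D-3/DV8 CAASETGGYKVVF TRAJ12: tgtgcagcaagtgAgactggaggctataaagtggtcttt
TRAV9N-2 TRAJ18, 15 residues: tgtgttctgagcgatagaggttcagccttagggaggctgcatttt
TRAV10 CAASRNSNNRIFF TRAJ31: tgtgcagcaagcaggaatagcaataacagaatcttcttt

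The wt libraries held 15427 to 24811 in-frame UMIs and the mutant libraries 7293 to 17819, so that the mutants were sampled less deeply (mean 13840 against 19958 UMIs). A count of 0 in a library allows a share of up to 0.0121 to 0.0411%, set at 3 UMIs and covering counting error only. The α chains of invariant NKT cells (TRAV11 or TRAV11D with TRAJ18) made up 0.00561 to 0.115% of in-frame UMIs, and those of MAIT cells (TRAV1 with TRAJ33) at most 0.247%, with 0 UMIs in 2 Il15° libraries. No pair of libraries of 1 genotype agreed within sampling noise, with chi-square values of 2.32 to 11.3 per degree of freedom, so each library was counted as 1 mouse. As cells were sorted and RNA was captured from the mixture, fewer cells with a receptor and less Tcra mRNA per cell cannot be told apart.

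Over the whole repertoire, few features differed from wt once both mutants were pooled. Of 40 TRAJ segments tested, 2 were called (5%), both lower, with an edgeR adjusted p under 0.05 and both mutant means on the same side of wt. No call was made among 80 TRAV segments (0%), 643 V-J pairs (0%) or 647 clonotypes (0%), where the smallest edgeR adjusted p was 0.119, 0.217 and 0.619. At an unadjusted p under 0.05 there were 6 TRAV segments, 4 TRAJ segments, 35 V-J pairs and 20 clonotypes. Both mutant means lay on the same side of wt for 44 of the 80 TRAV segments, 13 lower and 31 higher, and for 21 of the 40 TRAJ segments, 10 lower and 11 higher. For clonotypes the same held for 211 lower and 170 higher. Shares have a fixed total, so higher shares of some segments are not independent of lower shares of others. The median log2 fold change over the 80 TRAV segments was 0.15, and 0.084 with TMM scaling and 0.063 in DESeq2. The comparisons of Il2° and of Il15° with wt use the same wt libraries, so a shared direction is partly built in. The spread between libraries of a group, as the coefficient of variation estimated by edgeR, was 0.167 for TRAJ segments, 0.307 for TRAV segments, 0.639 for V-J pairs and 0.892 for clonotypes.

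TRAJ32 was the only feature of the segment levels whose 8 mutant values all lay outside the range of the 4 wt values (1 of 40 TRAJ segments, 2.5%, and 0 of 80 TRAV segments). It accounted for 2.14, 2.16, 2.68 and 2.40% of UMIs in the wt libraries. In the Il2° libraries its share was 1.99, 1.65, 1.63 and 1.65%. In the Il15° libraries it was 1.70, 1.64, 0.977 and 1.68%. The mean fell from 2.35 ± 0.253% in wt (SD, n = 4) to 1.61 ± 0.284% in mutants (SD, n = 8), a log2 fold change of -0.54 ± 0.12 (SE; edgeR adjusted p = 0.000662). Each mutant alone also differed from wt, with log2 fold changes of -0.44 for Il2° (edgeR adjusted p = 0.0361) and -0.63 for Il15° (edgeR adjusted p = 0.00109). The Il15° and Il2° libraries were not shown to differ from each other in TRAJ32 (log2 difference -0.20, edgeR adjusted p = 0.401). The call depended on the wt library with the highest share: without wt mouse 3 the log2 fold change was -0.47 and the edgeR adjusted p was 0.0608.

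TRAJ37 was lower by a smaller factor and its groups overlapped. Its share was 5.95, 5.67, 7.03 and 5.69% in wt, 4.92, 4.36, 4.95 and 4.48% in Il2°, and 5.75, 4.77, 4.26 and 5.27% in Il15°. All Il2° libraries lay below wt, and 1 Il15° library lay above the lowest 2 wt libraries. The pooled mean was 4.85 ± 0.497% in mutants (SD, n = 8) and 6.09 ± 0.645% in wt (SD, n = 4), a log2 fold change of -0.33 ± 0.098 (SE; edgeR adjusted p = 0.0199). Against wt alone, TRAJ37 passed in Il2° (log2 fold change -0.38, edgeR adjusted p = 0.0361) but not in Il15° (edgeR adjusted p = 0.200), and the mutants themselves were not shown to differ (log2 difference 0.10, edgeR adjusted p = 0.552). Without wt mouse 3 the log2 fold change was -0.25 with an adjusted p of 0.347 in edgeR. Without Il2° mouse 2 or mouse 4 the adjusted p was 0.0537 and 0.0534, and with TMM scaling 0.118.

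**Figure D1:**
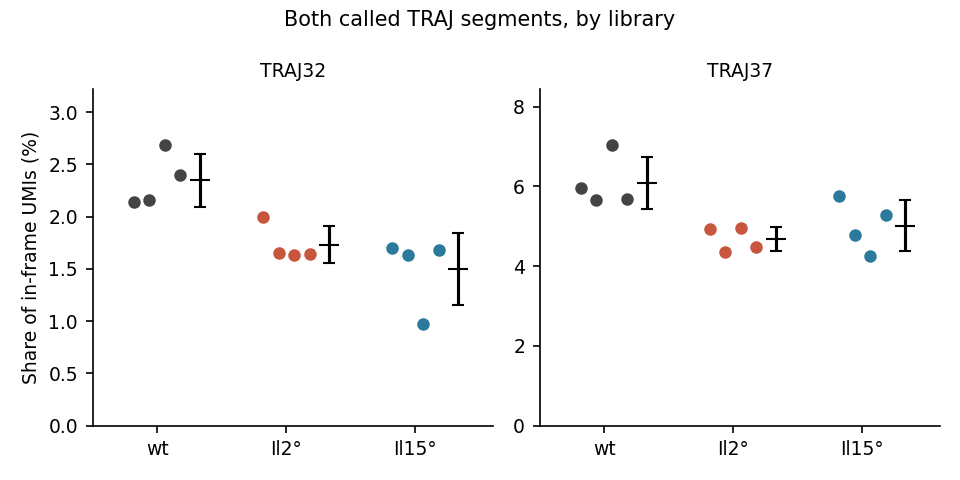
Share of in-frame UMIs (%) of TRAJ32 and TRAJ37 in each library, with 1 point per mouse and the mean ± SD beside the points of each genotype. All 8 mutant values of TRAJ32 lie below the lowest wt value of 2.14%, whereas 1 Il15° value of TRAJ37 (5.75%) lies among the wt values.

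Where in the repertoire these shares were lower is described by splitting each segment. The splits were chosen after the segment results were seen and re-use their values, so they are given without tests. Most TRAJ32 UMIs carried a V segment of the TRAV4 family, 80.4 ± 3.24% in wt (SD, n = 4) and 77.7 ± 4.70% in mutants (SD, n = 8). Within the TRAV4 family wt stood at 5.33 ± 0.442% TRAJ32 (SD, n = 4), Il2° at 4.76 ± 0.227% (SD, n = 4) and Il15° at 3.65 ± 0.925% (SD, n = 4). With all other V segments it took up 0.706% in wt, 0.602% in Il2° and 0.429% in Il15°. Both mutant means thus lay below wt beside both kinds of V segment, and the libraries overlapped in both. The most abundant TRAJ32 clonotype held 10.7 to 13.5% of TRAJ32 UMIs in wt, and without it TRAJ32 stood at 2.07% in wt and 1.41% in mutants. As a share of clonotypes, each counted once, TRAJ32 stood at 1.88% in wt and 1.55% in mutants, again with overlap. The number of UMIs per TRAJ32 clonotype, divided by that over all in-frame clonotypes, was 1.25 in wt and 1.06 in mutants.

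For TRAJ37 the mean values of the split differed between the mutants, a difference that was not tested. Within the TRAV4 family wt stood at 9.72 ± 1.14% (SD, n = 4), Il2° at 6.24 ± 0.849% (SD, n = 4) and Il15° at 8.30 ± 0.685% (SD, n = 4). With other V segments wt had a mean of 4.08%, Il2° of 4.09% and Il15° of 3.37%. Of the TRAJ37 UMIs, 56.5% carried the TRAV4 family in wt, against 36.3% in Il2° and 55.2% in Il15°. In Il2° the lower share of TRAJ37 thus lay beside TRAV4 segments, and in Il15° it was spread over both kinds of V segment. The leading clonotype held 17.0 to 25.9% of TRAJ37 UMIs in wt and 4.47 to 19.2% in mutants, and without it TRAJ37 stood at 4.87% in wt and 4.29% in mutants. Counted as clonotypes, TRAJ37 made up 4.20% in wt and 3.98% in mutants. Of the 35 TRAJ37 clonotypes that were tested, 15 had both mutant means below wt, 8 above and 12 on opposite sides. For TRAJ32 these numbers were 7, 1 and 11 of 19. Over all 647 clonotypes 32.6% had both means below and 26.3% above. The TRAJ32 share below was near this background and its share above was under it. For TRAJ37 the share below was over the background and the share above near it, and none of this was tested.

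Among the other TRAJ segments the largest unadjusted evidence was for TRAJ4, the next to last segment tested towards the 3′ end, with 2.07 ± 0.19% in wt (SD, n = 4) and 2.48 ± 0.37% in mutants (SD, n = 8). Its log2 fold change of 0.26 did not pass (edgeR adjusted p = 0.292). TRAJ17, TRAJ48, TRAJ13 and TRAJ21 had both mutant means above wt, with log2 fold changes of 0.17, 0.35, 0.14 and 0.13 that did not pass. TRAJ52, TRAJ49 and TRAJ28 had both means below wt, with pooled log2 fold changes of -0.53, -0.41 and -0.54 that did not pass either. Singly against wt, TRAJ52 passed in Il15° (log2 fold change -1.01, edgeR adjusted p = 0.0116) but not in Il2° (edgeR adjusted p = 0.781). TRAJ49 passed in Il2° (log2 fold change -0.66, edgeR adjusted p = 0.0480) but not in Il15° (edgeR adjusted p = 0.805). For TRAJ52, one of the 5′ segments, the mutants differed from each other: its mean share was 0.518% in Il2° and 0.277% in Il15°, against 0.571% in wt (log2 difference between the mutants -0.86, edgeR adjusted p = 0.0401). The mutants differed from each other in 3 more segments, outside the naming rule, whose means lay on both sides of wt: TRAJ24 (0.714% in Il2°, 1.17% in Il15°, 1.05% in wt; edgeR adjusted p = 0.00798), TRAJ22 (4.75, 6.32 and 6.04%; 0.0113) and TRAJ5 (0.793, 0.442 and 0.640%; 0.0113). TRAJ31, TRAJ12 and TRAJ9, the 3 most used segments in wt, had mean shares of 8.85, 8.21 and 6.78% in wt and 9.11, 8.87 and 7.34% in mutants, with groups that overlapped.

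By position, none of the 15 tested segments of the 3′ list (TRAJ2 to TRAJ23) had both mutant means below wt and 8 had both above. The 16 tested segments of the central list (TRAJ24 to TRAJ44), which contains TRAJ32 and TRAJ37, had 6 below and 2 above. The 9 tested segments of the 5′ list (TRAJ45 to TRAJ61) had 4 below and 1 above. Median log2 fold changes were 0.095, -0.10 and -0.098 in these lists, beside -0.041 over all 40 segments. The summed 3′ share was 57.0, 54.3, 51.5 and 54.2% in wt, and its lowest, median and highest values were 53.0, 57.6 and 59.4% in mutants. The ranges overlapped, and the mean of 57.0% in mutants against 54.2% in wt did not pass after adjustment (exact 2-sided Mann-Whitney p = 0.0485, adjusted 0.226 over 14 values per library). The central share, 41.3% in wt and 38.9% in mutants, did not pass either (exact p = 0.109). Shares add up to a fixed total, so a lower central share and a higher 3′ share are not independent measurements.

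**Figure D2:**
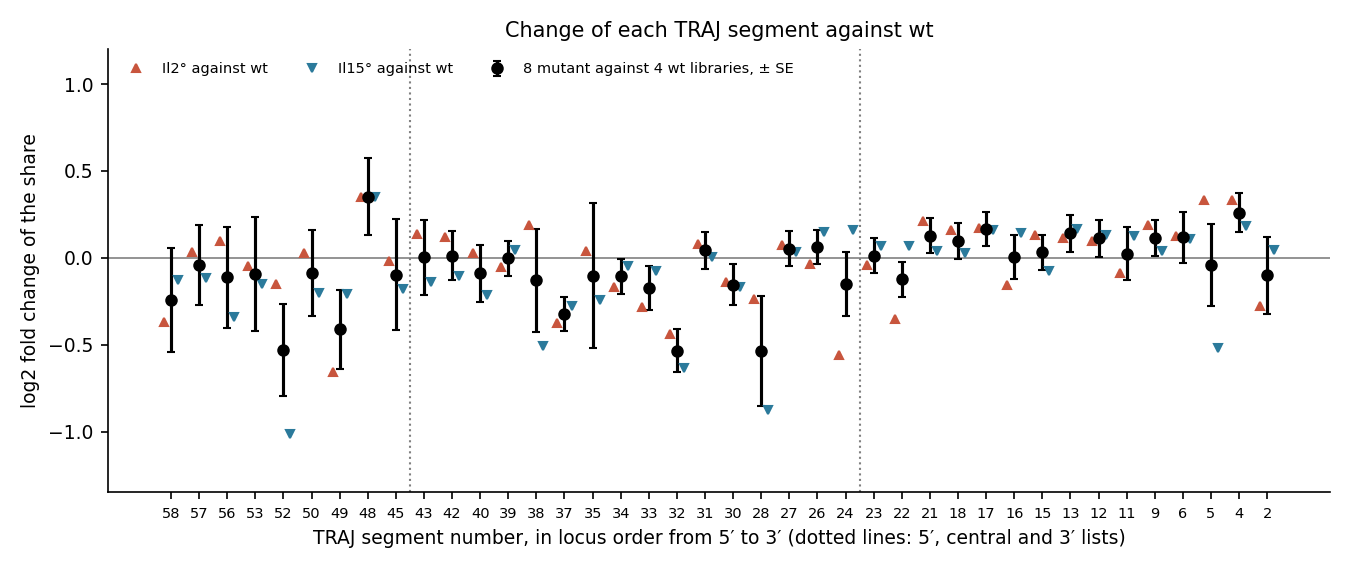
Log2 fold change of the share of each of the 40 TRAJ segments, in locus order, for 8 mutant against 4 wt libraries (black, ± SE) and for each mutant genotype against the same wt libraries (triangles). TRAJ32 at -0.54 and TRAJ37 at -0.33 are the called segments, and the 2 genotypes lie apart at TRAJ24, TRAJ22, TRAJ5 and TRAJ52.

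No TRAV segment passed the pooled test. TRAV13-4/DV7, a rarely used segment, had the largest difference, with 0.0927, 0.240, 0.214 and 0.216% in wt. It stood at 0.110, 0.0340, 0.0893 and 0.110% in Il2° and at 0.0637, 0.0229, 0.0484 and 0.0224% in Il15°. Its lowest wt value lay inside the mutant range, and the log2 fold change was -1.64 ± 0.45 (SE; edgeR adjusted p = 0.119). It passed under a fit with a mean for each genotype (log2 fold change -1.72, edgeR adjusted p = 0.0325) and in DESeq2 (log2 fold change -1.75, adjusted p = 0.0135). TRAV4D-3, the most used segment, stood at 18.8 ± 1.7% in wt (SD, n = 4), 12.9 ± 1.6% in Il2° (SD, n = 4) and 17.0 ± 2.6% in Il15° (SD, n = 4), a pooled log2 fold change of -0.33 (edgeR adjusted p = 0.322). Taken singly against wt, TRAV4D-3 passed in Il2° (log2 fold change -0.54, edgeR adjusted p = 0.00888) but not in Il15° (edgeR adjusted p = 0.697). The mutants were not shown to differ in it (edgeR adjusted p = 0.0767). TRAV12D-2 was at 1.95% in wt and 1.40% in mutants. TRAV4-3 was at 0.260% and 0.154%, and TRAV4D-4 at 7.20% and 6.45%. None of these 3 passed.

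On the other side, TRAV9N-2 had the smallest unadjusted p, with 0.208 ± 0.081% in wt (SD, n = 4) and 0.396 ± 0.14% in mutants (SD, n = 8; log2 fold change 0.93, edgeR adjusted p = 0.322). It was 0.402% in Il2° and 0.390% in Il15°, so the mutant means were close to each other. TRAV10N, TRAV8D-2, TRAV7D-6 and TRAV6-2 had both mutant means above wt, with log2 fold changes of 0.65, 0.60, 0.53 and 0.73, none of which passed. TRAV4N-3, the second most used segment in wt at 8.46%, was at 6.78% in Il2° and 8.80% in Il15° and so lay on both sides of wt. Outside the naming rule, the mutants differed from each other in TRAV1 (1.19% in Il2°, 0.545% in Il15°, 0.693% in wt; edgeR adjusted p = 0.0493). Names with D or N are copies in the duplicated parts of the TRAV cluster, whose near-identical sequences make the split between copies uncertain. Summing such copies left the number of called TRAV segments at 0 (adjusted by edgeR).

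Summing segments to 19 TRAV families, an addition made after the segments were seen, gave no call in edgeR either, with 3 families at an unadjusted p under 0.05. The TRAV4 family stood at 35.4 ± 2.16% in wt (SD, n = 4) and had 6 of 8 mutant libraries below the lowest wt value, with a log2 fold change of -0.23 (edgeR adjusted p = 0.204). The mutants differed from each other here, at 27.2% in Il2° and 33.1% in Il15° (log2 difference 0.29, edgeR adjusted p = 0.00200). TRAV10 stood at 3.35% in wt and 4.38% in mutants, and TRAV9 at 0.785% and 1.10%, each with 6 of 8 mutant libraries above the highest wt value (edgeR adjusted p = 0.204 for both). TRAV14 stood at 6.16 ± 0.212% in wt (SD, n = 4) and at 7.18 ± 0.784% in mutants (SD, n = 8), with 7 of 8 mutant libraries above wt (edgeR adjusted p = 0.252). For the TRAV6 family, 9 of its 12 tested segments had both mutant means above wt and 1 below, with a median log2 fold change of 0.28 beside 0.15 over all 80 TRAV segments, and its sum was 9.09% in wt and 10.1% in mutants (edgeR adjusted p = 0.507). For the TRAV9 family 5 of 6 segments had both means above wt (38.8% over all 80 TRAV segments), with a median of 0.48. As shares have a fixed total, the higher sums of these families are not independent of the lower TRAV4 sum. The 6 tested segments numbered TRAV16 to TRAV21 had 1 above and none below. This list follows family numbers and not position, since it holds TRAV16N at 53351028 on chromosome 14, upstream of TRAV10 at 53505727.

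**Figure D3:**
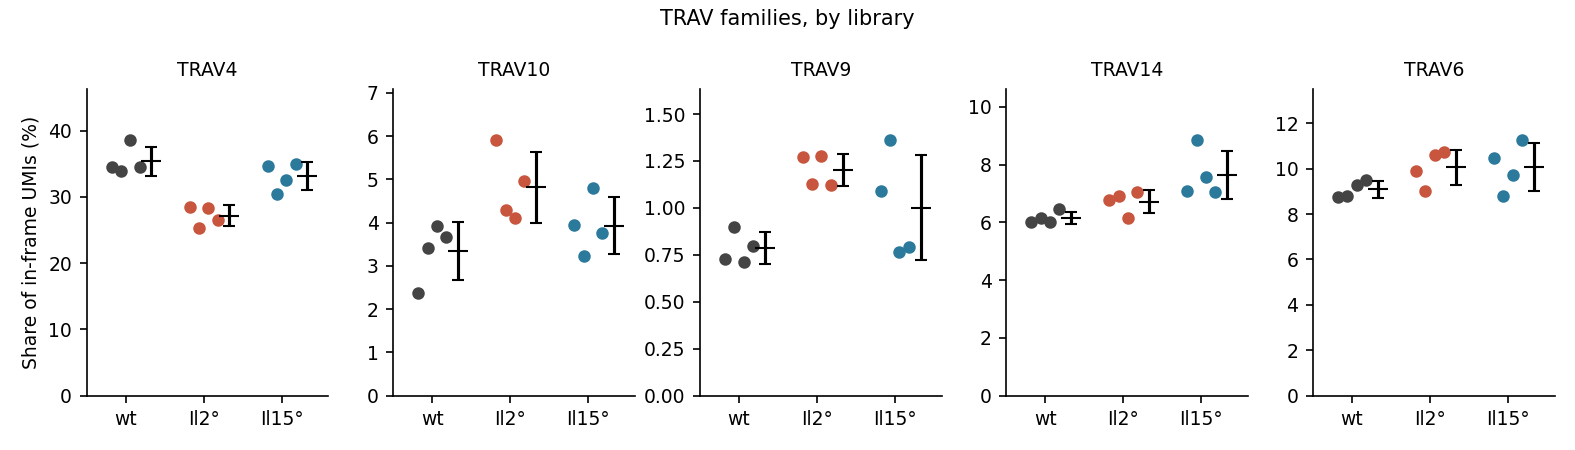
Summed share of in-frame UMIs (%) of 5 TRAV families in each library, with 1 point per mouse and the mean ± SD beside each genotype. In the TRAV4 panel the Il2° libraries (25.2 to 28.5%) lie below all others, and in the TRAV14 panel 7 of 8 mutant libraries lie above the highest wt value.

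Among 643 V-J pairs, which held 90.1% of in-frame UMIs, 6 had no overlap between mutant and wt libraries (0.933%), 5 of them lower in mutants. TRAV4D-3 TRAJ32, the main TRAV4 form of the called segment, was one of these. It ranged from 1.55 to 1.82% in wt and from 0.696 to 1.41% in mutants, with a log2 fold change of -0.50 that did not pass (edgeR adjusted p = 0.780). The pairs without overlap that were lower also included TRAV16N TRAJ22, TRAV7-3 TRAJ22, TRAV7-4 TRAJ30 and TRAV7D-3 TRAJ33. The pair that was higher was TRAV14-1 TRAJ17, at 0.307% in wt and 0.523% in mutants (edgeR adjusted p = 0.677). Other than TRAV7D-3 TRAJ33, these pairs were named after their values were seen.

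By the smallest unadjusted p, 2 of the 5 pairs with both mutant means below wt held TRAV4N-3, with TRAJ32 and with TRAJ31, and 2 held TRAV4D-3, with TRAJ49 and with TRAJ37. TRAV4N-3 TRAJ32 was at 0.101, 0.0874, 0.447 and 0.222% in wt and at 0.0116 to 0.138% in mutants (log2 fold change -2.03, edgeR adjusted p = 0.217; -1.39 and 0.996 without wt mouse 3). The wt range was wider than the distance of any mutant library from the lowest wt library. TRAV4D-3 TRAJ37, the most abundant pair in wt, was at 3.15 ± 0.66% in wt (SD, n = 4), 1.53 ± 0.27% in Il2° (SD, n = 4) and 2.52 ± 0.46% in Il15° (SD, n = 4), and did not pass (edgeR adjusted p = 0.401). TRAV4D-3 TRAJ49 was at 0.303% in wt and 0.142% in mutants (edgeR adjusted p = 0.370). TRAV4D-3 TRAJ31, the third most abundant pair in wt, was at 2.21% in wt and 1.67% in mutants (edgeR adjusted p = 0.867), whereas TRAV10 TRAJ31, the second, was at 2.34% and 2.92% (edgeR adjusted p = 0.951). TRAV4N-3 TRAJ31 was at 0.463% and 0.259%.

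Of the pairs with both mutant means above wt, TRAV6D-7 TRAJ24 and TRAV10 TRAJ27 had no UMI in 79831 wt UMIs, which allows a share of up to 0.00376%, set at 3 UMIs over the group. That limit covers counting error and not the spread between libraries, and both pairs met the UMI minimum through mutant libraries alone. TRAV6D-7 TRAJ24 had 41 UMIs in 6 of 8 mutant libraries (0.037% of pooled mutant UMIs). TRAV10 TRAJ27 had 31 UMIs in 6 of 8 (0.028%). TRAV14D-3/DV8 TRAJ12 stood at 0.0358 ± 0.021% in wt (SD, n = 4), 0.0694 ± 0.042% in Il2° (SD, n = 4) and 0.226 ± 0.10% in Il15° (SD, n = 4), with a log2 fold change of 2.02. TRAV6D-7 TRAJ37 was at 0.0226% in wt and 0.142% in mutants, and TRAV6-5 TRAJ18 at 0.00218% and 0.0639%, or 0.0329% in mutants without Il15° mouse 3. TRAV6-5 TRAJ18 also met the UMI minimum through mutant libraries alone. It fell below that minimum without Il2° mouse 1 or 2, or without Il15° mouse 2 or 3. None of these 5 pairs passed, the edgeR adjusted p lying between 0.217 and 0.295.

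The 647 clonotypes that could be tested held 47.4% of in-frame UMIs, and 6 of them (0.927%) had no overlap between the groups, 4 lower and 2 higher in mutants. The smallest unadjusted p among those lower belonged to TRAV4D-3 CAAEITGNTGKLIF TRAJ37, the leading TRAJ37 clonotype. It took up 1.08, 0.965, 1.82 and 1.01% of wt UMIs. In Il2° it was at 0.220, 0.204, 0.419 and 0.590%, and in Il15° at 0.915, 0.489, 0.629 and 1.01%. All Il2° libraries and 3 of 4 Il15° libraries lay below the lowest wt value. The log2 fold change was -1.12 ± 0.36 (SE; edgeR adjusted p = 0.685). Tested together with all clonotypes below the UMI minimum it passed (edgeR adjusted p = 0.0306), and it was the only clonotype called in any setting that was run.

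The TRAV4D-3 TRAJ39 clonotype of 14 residues had no overlap, with 0.0443, 0.0481, 0.149 and 0.0599% in wt and 0 to 0.0411% in mutants, 4 of which held no UMI of it (mean 0.0112%, and 0.00691% without Il2° mouse 4). TRAV4D-3 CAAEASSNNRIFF TRAJ31 was at 0.0470% in wt and 0.00721% in mutants. This clonotype met the UMI minimum through wt libraries alone, and fell below it when any wt library was left out. TRAV13N-2 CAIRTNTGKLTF TRAJ27 was at 0.168 ± 0.053% in wt (SD, n = 4) and 0.0750 ± 0.023% in mutants (SD, n = 8), with similar means in Il2° (0.0801%) and Il15° (0.0699%). TRAV4D-4 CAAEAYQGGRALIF TRAJ15 was at 0.146% in wt and 0.0420% in mutants. The edgeR adjusted p of these 4 was 0.996 each.

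Higher in all 8 mutant libraries than in any wt library was TRAV14D-3/DV8 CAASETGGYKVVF TRAJ12. It had 0.0161, 0.00437, 0 and 0% in wt, 0.0314, 0.0284, 0.0275 and 0.0274% in Il2°, and 0.0637, 0.0918, 0.184 and 0.101% in Il15°. The Il2° values lay between those of wt and Il15°, and they rest on 2 to 5 UMIs a library. No wt library reached the UMI minimum, so this clonotype met it through mutant libraries alone. The pooled log2 fold change was 3.44 ± 1.0 (SE; edgeR adjusted p = 0.619). The other clonotype of this kind, TRAV14-1 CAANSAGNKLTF TRAJ17, named after its values were seen, ranged from 0.161 to 0.293% in wt and from 0.309 to 0.895% in mutants (log2 fold change 0.97, edgeR adjusted p = 0.996). It made up most of the TRAV14-1 TRAJ17 pair described above, with means of 0.224% in wt and 0.439% in mutants.

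The TRAV9N-2 TRAJ18 clonotype of 15 residues had no UMI in wt and 63 UMIs in 5 of 8 mutant libraries (0.0569% of pooled mutant UMIs). It met the UMI minimum through mutant libraries alone and did not pass. It was highest in Il15° mouse 3 (0.242%) and Il2° mouse 3 (0.131%). It fell below the UMI minimum without Il2° mouse 3, or without Il15° mouse 1, 3 or 4. Its mean share in mutants was 0.0601%, and 0.0342% without Il15° mouse 3. TRAV6D-7 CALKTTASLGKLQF TRAJ24 gave all 41 UMIs of its pair, from a nucleotide sequence with 5 bases between V and J that was the same in 6 mice. Both mutant means were above wt for TRAV13N-2 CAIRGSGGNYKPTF TRAJ6, at 0.00109% in wt and 0.0282% in mutants. This clonotype also met the UMI minimum through mutant libraries alone. It fell below that minimum without Il2° mouse 1, or without Il15° mouse 1, 3 or 4. TRAV6D-7 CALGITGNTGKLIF TRAJ37 was at 0.0226% in wt, 0.178% in Il2° and 0.0600% in Il15°. All 4 Il2° libraries but only 1 Il15° library lay above the highest wt value, and without Il15° mouse 3 the Il15° mean was 0.0252%. TRAV10 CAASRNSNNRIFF TRAJ31, the most abundant clonotype of wt, was at 1.83 ± 0.55% in wt (SD, n = 4) and 2.40 ± 0.74% in mutants (SD, n = 8; edgeR adjusted p = 0.996). The TRAV16 TRAJ12 clonotype of 15 residues, the third most abundant, was at 1.02% in wt, 1.19% in Il2° and 0.992% in Il15°.

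**Figure D4:**
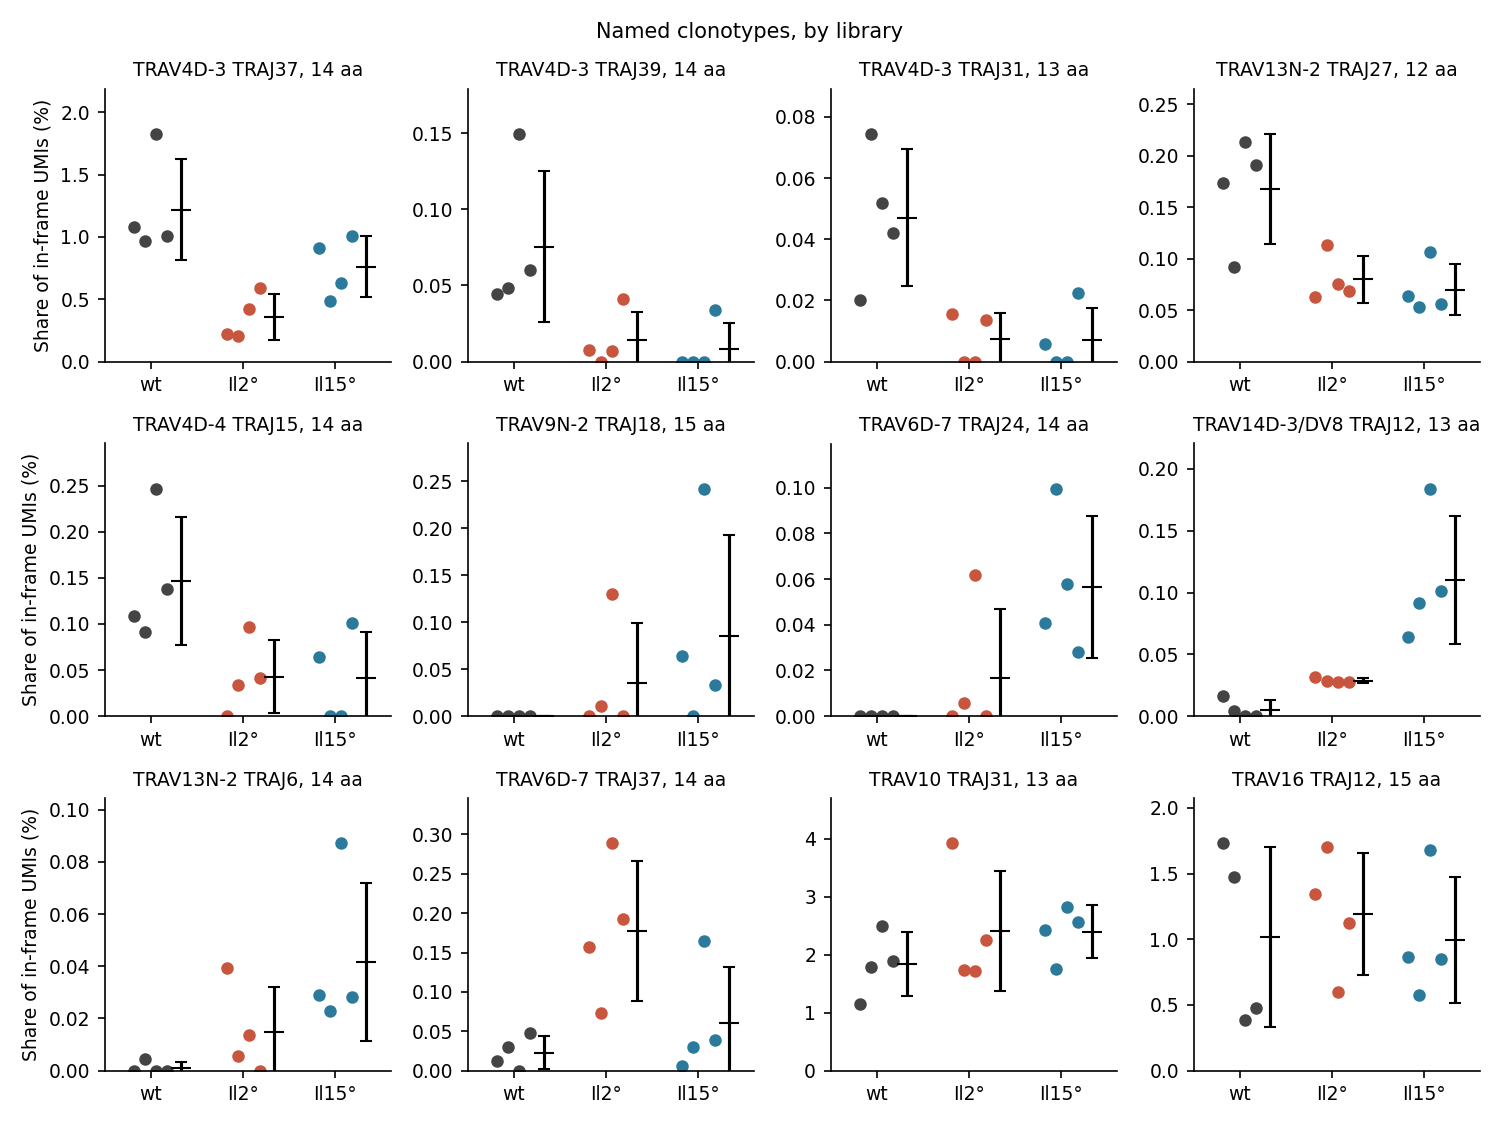
Share of in-frame UMIs (%) of the 12 clonotypes named by rule in each library, labelled by V segment, J segment and CDR3 length in amino acids, with the mean ± SD beside the points (bars end at 0). The TRAV14D-3/DV8 TRAJ12 panel shows all 8 mutant values, from 0.0274 to 0.184%, above the wt values. That clonotype met the UMI minimum through mutant libraries alone. The TRAV4D-3 TRAJ37 panel shows Il2° lowest and Il15° between.

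Presence and absence gave no clonotype that separated the groups fully in favour of the mutants. Of 20615 in-frame clonotypes over all libraries, 174 were found in all 12, 618 in all 4 wt libraries and 208 in all 8 mutant libraries. In all 4 wt libraries and no mutant there were 16, and in all 8 mutants and no wt library 0. These counts ask for presence in 4 and in 8 libraries, and the wt libraries were deeper, so they cannot be compared with each other. Thinning evens out the depth but not the number of libraries. With all libraries thinned to 7293 UMIs, the mean of 20 draws was 125 in all 12, 4.15 in wt only and 0.6 in all mutants only. Demanding 2 UMIs for presence left 7. With a looser limit, chosen after the data were seen, 10 clonotypes were in no wt library and in 6 mutant libraries (9.75 when thinned, for at least 6), and 2 were in all 8 mutants and 1 wt library.

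The 16 clonotypes held by all 4 wt libraries alone were of low abundance, between 4 and 22 UMIs over the 4 libraries. The most abundant was TRAV13N-2 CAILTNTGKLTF TRAJ27, with 2, 11, 6 and 3 UMIs in the wt libraries. It shares V and J segments with TRAV13N-2 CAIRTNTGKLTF TRAJ27, which was found on the lower side above. The 10 found in 6 mutants and no wt library ranged from 10 to 41 UMIs, and TRAV6D-7 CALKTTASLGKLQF TRAJ24 was the most abundant. A TRAV14-3 TRAJ13 clonotype of 13 residues followed with 39 UMIs, of which 16 came from 1 Il2° library. In all 8 mutants and 1 wt library were TRAV4D-3 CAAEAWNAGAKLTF TRAJ39, with 37 mutant UMIs and 3 wt UMIs, and TRAV6D-5 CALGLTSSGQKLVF TRAJ16, with 28 and 2. These clonotypes were named after their values were seen.

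**Figure D5:**
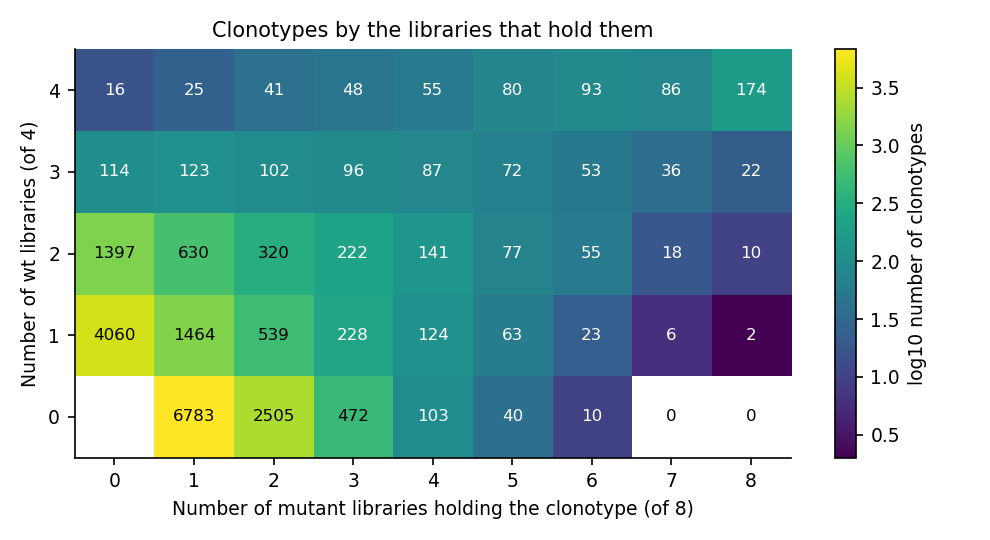
Number of in-frame clonotypes by the number of wt libraries (vertical, of 4) and mutant libraries (horizontal, of 8) that hold them, with colour on a log10 scale. The corner of wt alone holds 16 clonotypes, the corner of mutants alone holds 0, and 174 are in all 12 libraries.

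The shape of the repertoire, tested as 14 values per library, gave no difference past adjustment by exact 2-sided Mann-Whitney tests, of which 3 had an unadjusted exact p under 0.05. Clonotypes with 1 UMI made up 36.3, 33.8, 19.2 and 29.4% in wt, and 22.8, 40.2 and 56.7% as lowest, median and highest in mutants (exact p = 0.0485, adjusted 0.226). That value moves with depth, and with all libraries thinned to 7293 UMIs, a check added after the data were seen, it was 49.6% in wt and 48.8% in mutants (exact p = 1.0). UMIs with a cysteine inside the CDR3, a residue whose enrichment there has been linked to strong self-reactivity, made up 0.283% in wt and 0.228% in mutants (exact p = 0.0485, adjusted 0.226), with Il15° mouse 3 at 0.532% above all others. The remaining one was the 3′ TRAJ share given above. At the common depth the number of clonotypes was 2768 ± 365 in wt (SD, n = 4) and 2555 ± 542 in mutants (SD, n = 8), and the groups overlapped (exact p = 0.683). The exponential of the Shannon-Wiener index was 1542 in wt and 1395 in mutants (exact p = 0.461). The 10 largest clonotypes held 8.64% in wt and 9.12% in mutants (exact p = 0.570). The mean CDR3 length was 13.1 amino acids in both groups (exact p = 0.570). Between V and J, 2.07 bases lay in wt and 2.05 in mutants (exact p = 0.933), and 32.8% and 32.9% of UMIs had none (exact p = 0.933). The mean hydropathy of the central residues was -1.19 in wt and -1.21 in mutants (exact p = 0.283). Segments numbered TRAV16 to TRAV21 made up 4.33% and 4.74% (exact p = 0.570), and the 5′ TRAJ list 4.48% and 4.11% (exact p = 0.214). Rows that were not in frame made up 3.96% and 4.54% of all UMIs (exact p = 0.283). Most UMIs of these rows carried TRAJ7, TRAJ44 or TRAJ47, so the value mainly reflects those segments.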

How the data were processed

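TCRα libraries of 12 individual mice were analysed. The authors captured Tcra mRNA with constant-region primers and a template-switch oligonucleotide carrying a UMI, built UMI consensus sequences from at least 2 reads with pRESTO, and called V, CDR3 and J with MiXCR (labelled mm10, versions not given in the sources used here). The deposited count is the number of UMIs per sequence, without normalization, and the deposited fraction, that count over the library total, was not used. V-end and J-start positions, other numbers deposited by the authors, gave the bases between segments.

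Rows whose CDR3 was out of frame or held a stop were left out (3.44 to 5.50% of UMIs). Counts were summed per TRAV, TRAJ, V-J pair and clonotype and tested with edgeR's quasi-likelihood test over all features, 8 mutant against 4 wt libraries, with the in-frame total as library size and no further scaling. At least 10 UMIs (segments) or 5 UMIs (pairs, clonotypes) in at least 4 libraries were required. Adjusted p-values follow Benjamini-Hochberg, with a threshold of 0.05. A feature was called when it passed and both mutant means lay on the same side of wt. Values per library were compared over the 495 ways to choose 4 of 12 libraries. Diversity was taken at 7293 UMIs (mean of 20 draws). Each library is 1 mouse. Precision was limited by 7293 to 24811 in-frame UMIs per library.

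Features were named by rule, in each direction and at each level: up to 10 that were called, filled to 5 by the smallest unadjusted p, and the 3 with the highest wt share. The comparison, lists and rules were chosen with earlier results of these data known. Positions and J sequences came from GENCODE M21, where 92 of 105 TRAV names and 44 of 44 TRAJ names were found. Alternatives covered scaling, test, filter, unit of counting and each library left out. Tools were Python 3.11.15, pandas 2.3.3, scipy 1.17.1, R 4.3.3, edgeR 4.0.16, limma 3.58.1 and DESeq2 1.42.0, and the fits were tested on simulated data.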

Additional observations from a re-analysis of the deposited data

Results flagged for a closer look

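A sample was singled out when its gap to the next one exceeded Dixon's 95% critical value within a genotype or within the 8 mutants, which chance gives in about 1 of 20 groups, and this occurred 31 times in 244 groups tested. Several of these concern features with a few UMIs per library.

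TRAJ32 was at 1.99% in Il2° mouse 1, high for its genotype, and at 0.977% in Il15° mouse 3, low for its genotype and for all mutants. Without Il15° mouse 3 its log2 fold change was -0.46 and still passed (edgeR adjusted p = 0.0040). TRAJ49 was low at 0.357% in Il2° mouse 2, TRAJ17 high at 5.38% in Il2° mouse 4, and TRAJ9 high at 8.88% in Il2° mouse 2. The share of 5′ TRAJ was high at 5.12% in wt mouse 2 and low at 3.29% in Il15° mouse 1.

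Il15° mouse 3 also stood apart in the share of UMIs without a base between V and J (35.2%), in the share with a cysteine inside the CDR3 (0.532%), in TRAV6-5 TRAJ18 (0.280%), in TRAV7D-3 TRAJ33 (0%), in the TRAV14D-3/DV8 TRAJ12 clonotype (0.184%) and in the TRAV13N-2 TRAJ6 clonotype (0.0870%). Wt mouse 3 was high for TRAV4D-3 (21.4%), for the leading TRAV4D-3 TRAJ37 clonotype (1.82%) and for the TRAV4D-3 TRAJ39 clonotype (0.149%). Wt mouse 4 was low for TRAV4D-4 (6.48%), and wt mouse 2 alone held UMIs of TRAV6-5 TRAJ18 (0.00874%) and of the TRAV13N-2 TRAJ6 clonotype (0.00437%) among wt.

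Il15° mouse 2 was high for TRAV4D-4 (7.15%), TRAV10N (0.558%) and TRAV7D-6 (2.94%), and Il15° mouse 1 for mean CDR3 length (13.1 amino acids). Il15° mouse 4 was high for TRAV4D-3 TRAJ31 (2.32%) and for the TRAV4D-3 TRAJ39 clonotype (0.0337%). Il2° mouse 3 was high for TRAV6D-7 TRAJ24 and its clonotype (0.0618%) and for the TRAV9N-2 TRAJ18 clonotype (0.131%).

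Among the features named by rule, the mutants differed from each other in TRAJ52, with a log2 fold change of -0.86 for Il15° against Il2° (edgeR adjusted p = 0.0401).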

How the results depend on the processing

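The 2 TRAJ calls were the same under a fit with genotype means, all rows, no filter, a stricter filter, limma and a replicate block (2 TRAJ, 0 TRAV segments, 0 V-J pairs and 0 clonotypes with the replicate block). They fell to 1 (TRAJ32) with TMM factors and with DESeq2, and to 0 with each clonotype counted once, where the log2 fold change was -0.26 for TRAJ32 and -0.087 for TRAJ37. With Mann-Whitney tests 0 were called, but there the smallest exact p of 0.00404 gives 1 separated segment of 40 an adjusted p of 0.162. The log2 fold change of TRAJ32 beside that test, -0.54, comes from the same shares as the main value and is no separate support. With 1 library left out, 0 to 2 were called: 0 without wt mouse 3 and 1 without Il2° mouse 2 or 4. Over all 22 alternatives, which re-use the same libraries, TRAJ32 and TRAJ37 kept their direction. Adjusted p-values were 0.000184 to 0.336 for TRAJ32 with 19 past the threshold, and 0.00530 to 0.774 for TRAJ37 with 15 past it (edgeR, except for the other tests named). Calls rose from 0 to 1 for TRAV segments with genotype means and with DESeq2 (TRAV13-4/DV7) and for clonotypes without a filter. The cause of these changes was not tested.

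The percentage of clonotypes with 1 UMI changed sign at the common depth (-0.795 percentage points, mutant minus wt), an alternative chosen after the data were seen. Differences near 0 also changed sign. With each clonotype counted once, CDR3 length differed by -0.00318 amino acids and the share of TRAV16 to TRAV21 by -0.0239 percentage points. With 1 library left out, the ranges were -0.00163 to 0.00932 amino acids for length and -0.0309 to 0.000244 bases between V and J. They were -0.273 to 0.493 percentage points for UMIs without such a base, and -0.0229 to 0.797 percentage points for TRAV16 to TRAV21. Log2 fold changes also changed sign for TRAJ48 (-0.072) and TRAJ31 (-0.032) with each clonotype counted once, for TRAJ31 without Il2° mouse 1 or wt mouse 1 (-0.036 to 0.13 over the libraries left out), and for the TRAV16 TRAJ12 clonotype without Il15° mouse 3, Il2° mouse 2, wt mouse 3 or wt mouse 4 (-0.17 to 0.48 over the libraries left out).

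With 2 UMIs for presence, 113 clonotypes were in all 12 libraries and 7 in all wt and no mutant. Thinning gave 4.15 of the latter and 0.6 in all mutants and no wt. Replicate numbers are shared between genotypes but belong to different mice, and deviations of same-numbered libraries correlated from -0.492 to 0.405, so no pairing was used. Depth limits single clonotypes most, since those abundant enough to test held 47.4% of in-frame UMIs.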
